A study of Mus musculus with 6 samples.

Results

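A set of 10 immediate early response genes was followed in the thyroid gland of mice with and without a thyroid-specific Tet1 deletion, made up of Fos, Fosb, Jun, Junb, Egr1, Atf3, Nr4a1, Ier2, Dusp1 and Zfp36. The 10 genes were taken by their symbols from a table of 21878 genes, and all 10 were among the 14143 genes with enough counts to be tested. The 6 RNA-seq libraries came from thyroids of female mice, of which 3 carried the label Thy-Tet1-/- and 3 the label Thy-Tet1+/+. Thy-Tet1-/- mice carried a floxed Tet1 allele that Cre deletes in follicular epithelial cells, so that other cells of the gland keep Tet1. Thy-Tet1+/+ mice were wild-type littermates, the age was 12 weeks in both groups, and no agent is named for either group. TET1 oxidises methylated cytosine, and the libraries were made to ask how its loss in the follicular cell alters gene expression in the gland. Each library carries a number within its group and is taken as 1 mouse. The p-values concern the difference between the groups, set against the spread between these libraries.

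Immediate early genes are transcribed within minutes of a stimulus and need no new protein for it, because the factors that switch them on, serum response factor with its partners and CREB, are already bound or present and are activated by kinases. FOS and JUN proteins pair into the AP-1 transcription factor, while DUSP1, a phosphatase of MAP kinases, and ZFP36, which binds AU-rich messages and speeds their decay, shorten the response. In the follicular cell, thyrotropin acting through cyclic AMP and growth factors acting through MAP kinase are known inducers of these genes. Handling and dissociation of tissue are known to induce them too.

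Total counts ranged from 8867683 to 19950898 per library. A level of 3 counts corresponded to between 0.150 and 0.338 CPM (counts relative to library size), and this limit covers counting error only. The library sizes were scaled by TMM, edgeR's normalisation between libraries. The targeted gene went against its label. Tet1 stood at 4.31 ± 1.21 CPM in Thy-Tet1+/+ and at 10.4 ± 1.60 CPM in the other 3 libraries (SD, n = 3 each), which are therefore called the libraries labelled Thy-Tet1-/-. The log2 fold change of Tet1, the second group over the first, was 1.28 with a standard error of 0.27. In edgeR the unadjusted p was 0.00248 and the adjusted p 0.101. By the limits set out below Tet1 was called, also under all 16 alternative settings. The counts are per gene and do not show which exons were read. The paper reports lower TET1 staining in thyroid sections of Thy-Tet1-/- mice, which measures protein and not RNA. Follicular markers were abundant in every library, with 11 of 11 detected and a summed level of 256781 to 316936 CPM in Thy-Tet1+/+ against 193908 to 239752 CPM in the libraries labelled Thy-Tet1-/-. Nearly all of that sum was Tg, the thyroglobulin gene (means 283985 and 210858 CPM). Of the 10 markers tested 5 had a higher and 5 a lower point estimate. Their median log2 fold change was -0.05, in a range from -2.16 to 0.65. By the same limits 3 of the 10 were called, 1 as higher and 2 as lower, beside 9.20% of all tested genes. Groups did not overlap for 5 of the 10, beside 26.8% of all. The marker lists were chosen with earlier results of these data known. Neighbouring tissue varied from library to library, since parathyroid markers summed to between 192 and 31340 CPM and skeletal muscle markers to between 40.8 and 7386 CPM. Adipocyte markers summed to 153 to 496 CPM in Thy-Tet1+/+ and to 356 to 1617 CPM in the second group. By the limits used for Tet1, 3 of these 6 markers were called, all as higher, beside 5.54% of all tested genes. Yet the ranges of both groups overlapped for all 6. Their median SD of log2 CPM was 1.58 within Thy-Tet1+/+ and 1.41 within the second group, beside 0.26 and 0.18 over all tested genes. The part of these tissues in the results was not tested. In whole glands, fewer cells of a type and less RNA per cell cannot be told apart.

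The sequences in front of 5 of the genes are shown because those genes carry the results, Junb and Dusp1 as the ones called between the groups and Fos, Fosb and Atf3 as the ones that 1 library set apart. Each runs 5′ to 3′ on the gene's strand from 250 bases before to 50 bases after the start, from RefSeq on GRCm38.p6, whose table matched 8 of the 10 genes. Egr1 and Ier2 are named only. Capitals mark TGACG or its reverse complement CGTCA, the core of the cyclic AMP response element, and the full element TGACGTCA. The windows are chr8:84978699-84978998 for Junb on the minus strand, chr17:26508423-26508722 for Dusp1 on the minus strand, chr12:85473640-85473939 for Fos on the plus strand, chr7:19309996-19310295 for Fosb on the minus strand and chr1:191183284-191183583 for Atf3 on the minus strand.
Junb: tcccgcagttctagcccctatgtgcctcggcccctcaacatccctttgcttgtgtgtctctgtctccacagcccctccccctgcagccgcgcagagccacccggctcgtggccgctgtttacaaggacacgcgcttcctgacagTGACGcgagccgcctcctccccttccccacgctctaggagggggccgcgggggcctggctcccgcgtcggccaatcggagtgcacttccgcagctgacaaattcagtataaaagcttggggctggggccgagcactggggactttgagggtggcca
Dusp1: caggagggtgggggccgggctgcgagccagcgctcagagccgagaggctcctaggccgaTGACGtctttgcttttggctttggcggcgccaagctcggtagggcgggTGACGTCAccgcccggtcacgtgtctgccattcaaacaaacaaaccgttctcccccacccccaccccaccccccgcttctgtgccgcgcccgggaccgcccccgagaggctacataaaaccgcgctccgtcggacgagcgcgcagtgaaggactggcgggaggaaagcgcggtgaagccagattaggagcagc
Fos: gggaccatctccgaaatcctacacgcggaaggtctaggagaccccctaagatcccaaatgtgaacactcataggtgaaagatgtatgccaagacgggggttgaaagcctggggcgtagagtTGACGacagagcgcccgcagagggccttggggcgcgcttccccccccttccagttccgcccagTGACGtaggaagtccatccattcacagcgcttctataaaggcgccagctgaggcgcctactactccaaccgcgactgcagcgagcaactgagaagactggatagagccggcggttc
Fosb: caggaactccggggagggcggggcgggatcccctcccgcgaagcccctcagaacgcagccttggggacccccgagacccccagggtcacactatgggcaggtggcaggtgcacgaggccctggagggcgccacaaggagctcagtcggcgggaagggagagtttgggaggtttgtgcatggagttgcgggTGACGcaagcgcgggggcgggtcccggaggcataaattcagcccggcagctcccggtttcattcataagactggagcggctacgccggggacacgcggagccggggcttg
Atf3: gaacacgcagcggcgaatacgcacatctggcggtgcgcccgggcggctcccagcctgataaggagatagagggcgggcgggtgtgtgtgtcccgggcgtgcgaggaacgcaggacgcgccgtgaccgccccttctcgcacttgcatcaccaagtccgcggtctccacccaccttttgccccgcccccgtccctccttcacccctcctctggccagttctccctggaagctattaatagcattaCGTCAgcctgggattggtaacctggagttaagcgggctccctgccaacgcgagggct

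Counted from the start, TGACG began at -106 in Junb, at -129 and -66 in Fos and at -60 in Fosb, and CGTCA began at -7 in Atf3. Dusp1 held TGACG at -191 and the full TGACGTCA from -143 to -136, which itself contains the core on both strands. Of the 8 windows, 6 held the core, against 20.8% of all 32851 windows of this length. The full element stood in 1 of 8 windows, against 1.79% of all. The CArG box bound by serum response factor, searched by name on both strands, was found in 1 of 8, Zfp36, as CCATAAAAGG from -58 to -49, and in 1.63% of all windows. The EGR motif GCGGGGGCG stood in 3 of 8 windows, those of Fosb, Zfp36 and Nr4a1, against 2.91% of all. Its variant GCGTGGGCG stood in 0 of 8, against 0.612%, and the AP-1 motif TGANTCA also in 0 of 8, against 7.81%. Each count covers the stated letters of its motif only, so longer or variant sites were not counted. The 8 windows were richer in G and C, at 58.7% (Fos) to 72.3% (Nr4a1), than all windows, with a median of 52.7%. The motif GGGCGG, made of G and C only, stood in 7 of 8, against 35.7% of all. The part of base composition in these shares was not tested. A match describes the letters of this window and not a bound site. Bases farther out were not searched, so a motif absent here can stand outside the window.

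The question put to the genes was whether their level differed between the groups. A gene was called when its log2 fold change, the libraries labelled Thy-Tet1-/- over Thy-Tet1+/+, passed the size limit the study states, about 1.5-fold up or down, and its unadjusted p was under 0.05 in edgeR's quasi-likelihood test. Of the 10 genes, 2 were called, Junb as higher and Dusp1 as lower. Of all tested genes 9.20% were called, 5.54% as higher and 3.66% as lower. The 10 genes were chosen with earlier results of these data known, so their share is a description only. With p-values adjusted over all tested genes by the Benjamini-Hochberg method, 0 of the 10 had an adjusted p under 0.05 in edgeR, against 0.113% of all genes, while 2 had an unadjusted p under 0.05. In DESeq2 2 of the 10 passed that limit, again Junb and Dusp1, and in limma-voom 0. Both called genes, and no other of the 10, had groups that did not overlap, and 26.8% of all genes had such groups.

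Junb encodes an AP-1 subunit that often restrains c-JUN in growth control. It stood at 24.7, 34.1 and 26.0 CPM in Thy-Tet1+/+ replicates 1 to 3 and at 64.9, 41.2 and 76.5 CPM in the libraries labelled Thy-Tet1-/-. Every library of the second group was above every library of the first, although replicate 2 of each group brought them close. The means were 28.3 ± 5.08 and 60.8 ± 18.0 CPM (SD, n = 3 each), a log2 fold change of 1.10 with a standard error of 0.25. The adjusted p of edgeR was 0.106 and the unadjusted p 0.00331, and the two-sided exact permutation test gave 0.10, the smallest p that 3 against 3 allows. Junb was called under all 16 alternative settings, each library left out in turn included, with log2 fold changes from 0.90 to 1.62. Its exons share 173 bases with Prdx2 on the other strand, and the strand setting of the counting is not given in the sources used here. Prdx2 had a log2 fold change of -0.16 (standard error 0.22, edgeR adjusted p = 0.732).

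Dusp1 dephosphorylates ERK, JNK and p38 and so closes the signal that induced it. It stood at 30.6, 73.2 and 35.3 CPM in Thy-Tet1+/+ and at 21.1, 25.1 and 21.2 CPM in the libraries labelled Thy-Tet1-/-. The second group lay in a narrow band under every control library, and replicate 2 of Thy-Tet1+/+ lay far above the other controls. The means were 46.4 ± 23.4 and 22.5 ± 2.27 CPM (SD, n = 3 each). The log2 fold change was -1.05 with a standard error of 0.33 and an edgeR adjusted p of 0.175 (unadjusted p = 0.0168), and the exact permutation test gave 0.10. Without Thy-Tet1+/+ replicate 2 the log2 fold change was -0.55, with a standard error of 0.15 and an unadjusted p of 0.0112, so that Dusp1 was no longer past the limit on its size. Without replicate 1 labelled Thy-Tet1-/- the log2 fold change was -1.03 with an unadjusted p of 0.0506. Dusp1 shares 11 bases of exon with Ergic1 on the other strand, and Ergic1 had a log2 fold change of -0.49 (standard error 0.13, edgeR adjusted p = 0.122). Jun and Zfp36 share 232 and 125 bases with Junos and Gm44710 on the other strand, which are not among the counted genes.

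**Figure D1:**
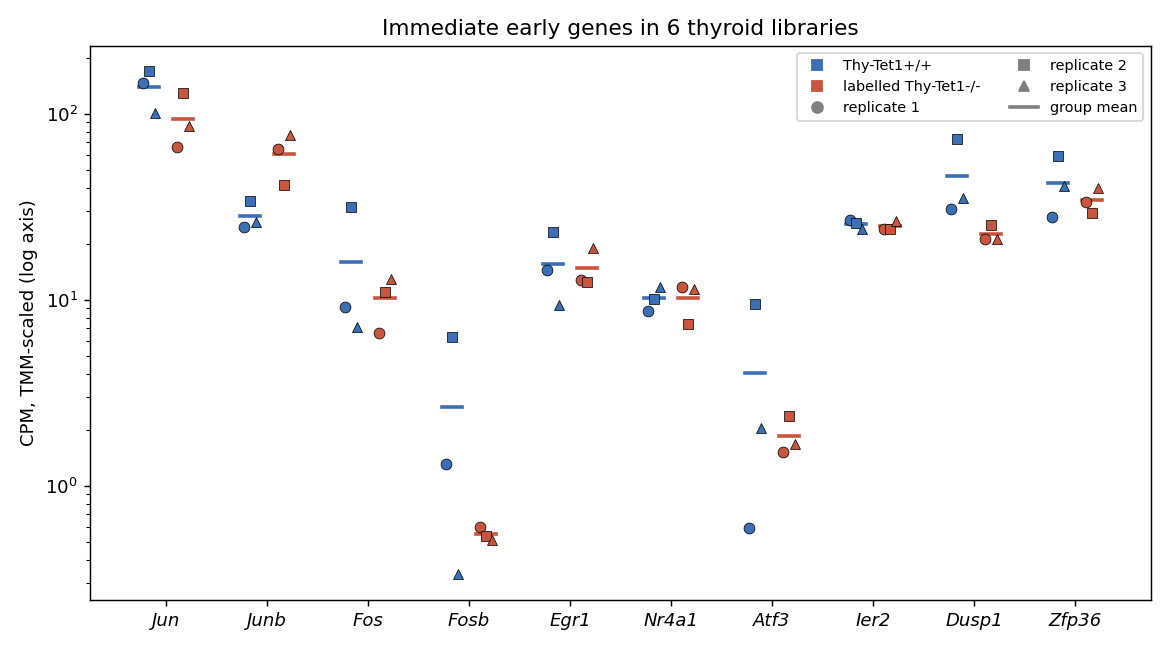
Level of each of the 10 genes in the 6 libraries, in TMM-scaled CPM on a log axis, with a point for each library and a bar for each group mean. The groups separate for Junb (highest control 34.1 CPM, lowest library labelled Thy-Tet1-/- 41.2 CPM) and for Dusp1 (30.6 against 25.1 CPM), and the high points of Fosb, Atf3 and Fos belong to Thy-Tet1+/+ replicate 2.

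The other 3 AP-1 subunits were not called. Fos, the partner that gives AP-1 its rapid and brief activity, stood at 9.14, 31.6 and 7.10 CPM in Thy-Tet1+/+ and at 6.59, 11.0 and 13.0 CPM in the libraries labelled Thy-Tet1-/-. The group means were 15.9 ± 13.6 and 10.2 ± 3.26 CPM (SD, n = 3 each), and the log2 fold change was -0.65 (standard error 0.59, edgeR adjusted p = 0.597). Replicate 2 of Thy-Tet1+/+ was alone at the top, while the other control libraries lay inside the range of the second group. Without that library the log2 fold change of Fos was 0.33, in the opposite direction.

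Fosb, which has the same partners as Fos, was the lowest of the 10. It had 11, 118 and 6 counts in Thy-Tet1+/+ and 11, 9 and 10 counts in the libraries labelled Thy-Tet1-/-. In CPM these were 1.31, 6.31 and 0.333 against 0.599, 0.533 and 0.508. The exact Poisson 95% interval was 5.22 to 7.56 CPM in Thy-Tet1+/+ replicate 2, above all other libraries, whose intervals together ran from 0.122 to 2.34 CPM. The log2 fold change was -2.28, the largest in size of the 10, but its standard error was 0.99 and the edgeR adjusted p 0.275. It was -0.50 without Thy-Tet1+/+ replicate 2, whereas without Thy-Tet1+/+ replicate 3 it was -2.81 with an unadjusted p of 0.00827, past both limits.

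Jun, the AP-1 subunit that can pair with itself, was the most abundant. Its levels were 147, 169 and 101 CPM in Thy-Tet1+/+ and 66.2, 129 and 86.3 CPM in the libraries labelled Thy-Tet1-/-. The second group held the lowest libraries, but its replicate 2 lay above Thy-Tet1+/+ replicate 3. The means were 139 ± 35 and 93.8 ± 32.0 CPM (SD, n = 3 each) and the log2 fold change was -0.57 (standard error 0.29, edgeR adjusted p = 0.340). Without replicate 2 labelled Thy-Tet1-/- it was -0.88 with an unadjusted p of 0.0153, and without Thy-Tet1+/+ replicate 3 it was -0.75 with an unadjusted p of 0.0407, both past the limits.

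Because Junb was called as higher and the point estimates of its partners were lower, their ratios were taken within each library, where scaling between libraries has no part. This was chosen after the values had been seen, so the ratios largely restate the fold changes above. Their p-values and lack of overlap are no separate support. The ratio of Junb to Jun counts was 0.168, 0.201 and 0.258 in Thy-Tet1+/+ and 0.979, 0.319 and 0.886 in the second group. The groups did not overlap, and the mean log2 ratio differed by 1.66 (exact permutation p = 0.10, the smallest possible). The ratio of Junb to Fos counts was 2.70, 1.08 and 3.66 against 9.84, 3.76 and 5.90. These groups did not overlap either, although the highest control and the lowest library of the second group were close, and the difference of the mean log2 ratio was 1.45 (exact permutation p = 0.10), or 0.94 without Thy-Tet1+/+ replicate 2.

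Among the 3 other transcription factors, none was called. Egr1, a zinc finger factor of the growth factor response, stood at 14.4, 23.0 and 9.32 CPM in Thy-Tet1+/+ and at 12.8, 12.4 and 19.1 CPM in the libraries labelled Thy-Tet1-/-, which lay within the control range. Its log2 fold change was -0.08 (standard error 0.35, edgeR adjusted p = 0.932). Nr4a1, an orphan nuclear receptor known to follow cyclic AMP, stood at 8.66, 10.1 and 11.8 CPM against 11.8, 7.41 and 11.4 CPM, with means of 10.2 ± 1.55 and 10.2 ± 2.43 CPM (SD, n = 3 each). Its log2 fold change was 0.00 (standard error 0.25, edgeR adjusted p = 0.999). Both genes had overlapping groups and no steady direction, and Egr1 had a log2 fold change of 0.33 without Thy-Tet1+/+ replicate 2.

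Atf3, a stress-responsive factor of the ATF family, had 5, 178 and 37 counts in Thy-Tet1+/+ and 28, 40 and 33 counts in the libraries labelled Thy-Tet1-/-. In CPM these were 0.593, 9.52 and 2.05 against 1.53, 2.37 and 1.68. Controls held both the highest and the lowest library, with the second group between them. The log2 fold change was -1.15 (standard error 0.88, edgeR adjusted p = 0.527), and 0.44 without Thy-Tet1+/+ replicate 2.

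Of the remaining regulators, Ier2, a small nuclear protein of uncertain mechanism, was the steadiest of the 10. It stood at 26.9, 25.9 and 23.9 CPM in Thy-Tet1+/+ and at 24.1, 24.0 and 26.6 CPM in the libraries labelled Thy-Tet1-/-, a spread of 1.13 times between the highest and the lowest library. Its log2 fold change was -0.04 with a standard error of 0.12 (edgeR adjusted p = 0.899). Zfp36, the decay factor for AU-rich messages, stood at 27.9, 58.9 and 40.8 CPM against 33.5, 29.2 and 39.8 CPM, with the second group inside the control range. Its log2 fold change was -0.32 (standard error 0.27, edgeR adjusted p = 0.574), and it was -0.01 without Thy-Tet1+/+ replicate 2.

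One control library carried much of the spread. Thy-Tet1+/+ replicate 2 was the highest of the 6 libraries for 7 of the 10 genes, against 15.0% of all tested genes. It was more than 1.5 times the next library for 4 of the 10, Fosb (4.84 times), Atf3 (4.02), Fos (2.44) and Dusp1 (2.08), against 2.28% of all genes. For Zfp36, Egr1 and Jun it was 1.44, 1.21 and 1.15 times the next library. Junb, Nr4a1 and Ier2 were not highest there, and Junb stood at 0.445 times the highest library. The 10 genes summed to 442 CPM in this library and to between 243 and 296 CPM in the other 5. Without Jun, which made up much of the sum, they summed to 273 CPM against 144 to 210 CPM.

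Macrophage and neutrophil markers were also high in that library. The 5 macrophage markers summed to 98.5, 416 and 235 CPM in Thy-Tet1+/+ and to 176, 163 and 220 CPM in the libraries labelled Thy-Tet1-/-, and 5 of 5 were highest in Thy-Tet1+/+ replicate 2. The 3 neutrophil markers summed to 0.593, 6.74 and 4.94 CPM against 1.14, 2.55 and 3.00 CPM, and 3 of 3 were highest there. Lymphocyte markers were not, at 4.92 CPM there against 95.4 CPM in Thy-Tet1+/+ replicate 1 and 345 CPM in replicate 3 labelled Thy-Tet1-/-. Parathyroid markers were at 192 CPM in it, the lowest of the 6 libraries. The follicular and epithelial sums were also highest in Thy-Tet1+/+ replicate 2, at 316936 and 3277 CPM. Of 10 tested follicular markers 2 were highest there, and of 10 epithelial markers 5. The neutrophil sums were low, and 1 of 3 of those markers was more than 1.5 times the next library, against 4 of 5 macrophage markers. The part of these cell types in the levels of the immediate early genes was not tested.

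Without Thy-Tet1+/+ replicate 2, 1 of the 10 genes was called, Junb (log2 fold change 1.26, standard error 0.28, edgeR adjusted p = 0.159), against 9.04% of all genes in the same fit. The median log2 fold change of the 10 genes was -0.44 with all libraries and -0.01 without this one, beside medians of 0.00 and 0.01 over all tested genes. Fos, Egr1 and Atf3 changed direction, as did Nr4a1 within values near 0 (-0.0067 without the library).

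**Figure D2:**
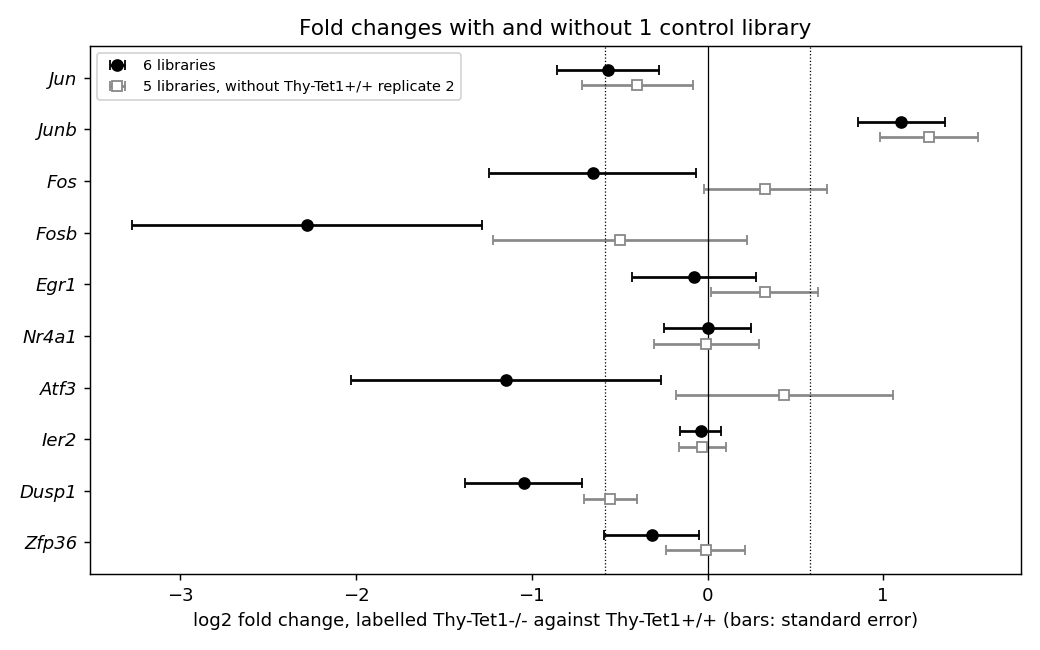
Log2 fold change of each gene, the libraries labelled Thy-Tet1-/- over Thy-Tet1+/+, with its standard error, from all 6 libraries and without Thy-Tet1+/+ replicate 2. Junb stays near its value (1.10 and 1.26), while Fosb moves from -2.28 to -0.50 and Atf3 from -1.15 to 0.44.

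The spread between libraries differed widely from gene to gene. The ratio of the highest to the lowest library was 19.0 for Fosb, 16.0 for Atf3, 4.79 for Fos, 3.46 for Dusp1 and 3.10 for Junb, and it lay between 1.13 and 2.56 for the other five. The SD of log2 CPM (with a prior count of 2) within Thy-Tet1+/+ was 1.92 for Fosb, 1.88 for Atf3 and 1.14 for Fos, against 0.10, 0.32 and 0.50 in the second group. The median SD over the 10 genes was 0.59 within Thy-Tet1+/+ and 0.33 within the second group, beside 0.26 and 0.18 over all tested genes. It was 0.35 within Thy-Tet1+/+ without its replicate 2, and 0.15 within the libraries labelled Thy-Tet1-/- without their replicate 2. Junb, Nr4a1 and Jun ran against the median, with the larger SD in the second group (0.25 and 0.46 for Junb, 0.22 and 0.37 for Nr4a1, 0.39 and 0.48 for Jun).

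Levels can be set against each other only per length, here as CPM per kb of summed exons in GENCODE M21. In Thy-Tet1+/+ the order was Jun (43.6 CPM per kb), Ier2 (16.8), Dusp1 (14.0), Junb (12.3), Zfp36 (12.3), Fos (6.77), Egr1 (3.47), Nr4a1 (2.90), Atf3 (1.88) and Fosb (0.424). Jun alone was clear of its neighbour, and every other pair of neighbours overlapped between libraries. In the libraries labelled Thy-Tet1-/- Junb stood at position 2 instead of 4, at 26.4 CPM per kb, below Jun at 29.4 with overlapping libraries. Ier2 (16.4), Zfp36 (9.85), Dusp1 (6.80) and Fos (4.32) followed without overlap between neighbours. Fos, Egr1 (3.29) and Nr4a1 (2.91) overlapped one another in turn, and Atf3 (0.862) and Fosb (0.0876) stood apart below them.

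The mean profile of the 10 genes, as log2 CPM centred on each gene's mean, was 0.92 in Thy-Tet1+/+ replicate 2 and between -0.28 and 0.00 in the other libraries. Zfp36 and Egr1 were nearest to it, with a root mean square difference of 0.23 and 0.26, and Junb (0.76), Atf3 (0.79) and Fosb (0.92) were farthest, Junb because it was highest in other libraries and Atf3 and Fosb because their swings were wider. The 5 tested genes outside the list that came nearest over the 6 libraries were Pitpnm3 (0.085), Diaph3 (0.089), Csf1r (0.095), Serpinb9 (0.10) and Lyn (0.13), against a median of 0.51 over all tested genes. All 5 were highest in Thy-Tet1+/+ replicate 2, which follows from the way they were picked. Csf1r, the receptor for colony-stimulating factor 1 and one of the 5 macrophage markers, stood at 31.2, 69.8 and 30.7 CPM in Thy-Tet1+/+ and at 34.8, 29.9 and 34.5 CPM in the libraries labelled Thy-Tet1-/-. Lyn, a Src family kinase of blood cells, stood at 36.9, 70.7 and 40.6 CPM against 34.8, 36.6 and 38.6 CPM. Pitpnm3, Diaph3 and Serpinb9 stood at 41.9, 33.0 and 64.1 CPM in Thy-Tet1+/+ replicate 2, and at most at 25.3, 16.1 and 36.1 CPM elsewhere.

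**Figure D3:**
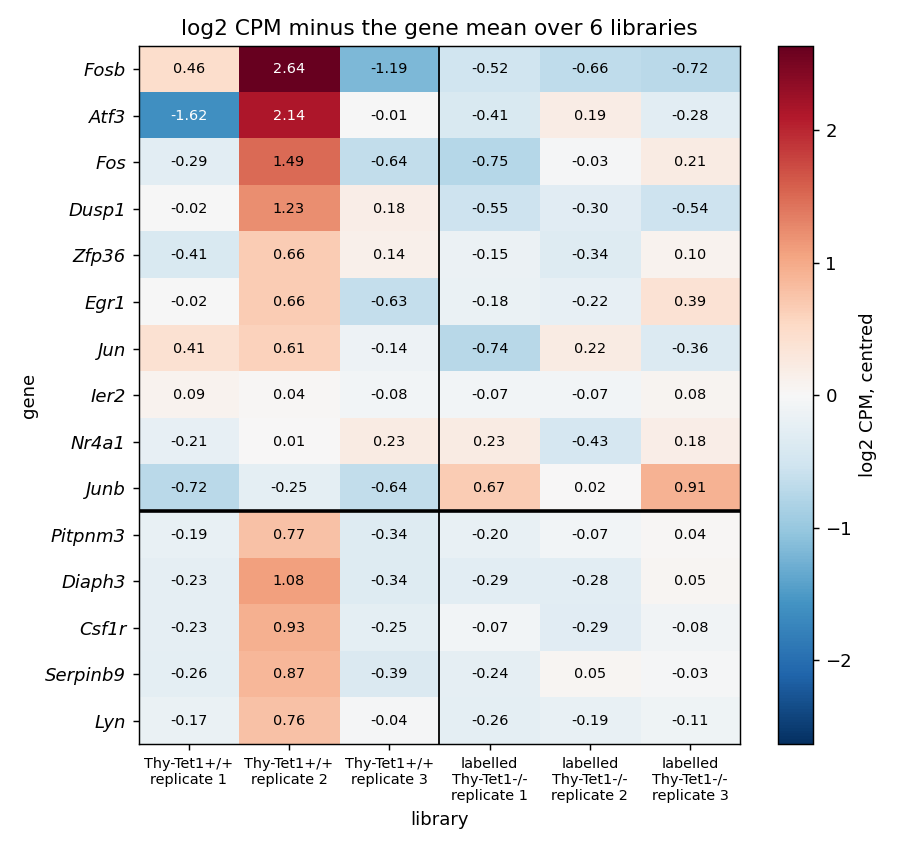
Log2 CPM of the 10 genes and of the 5 genes nearest to their mean profile, each centred on its own mean, with 1 column for each library. The column of Thy-Tet1+/+ replicate 2 is the highest for 7 of the 10 genes, and Junb is highest in the libraries labelled Thy-Tet1-/-. That column is also the highest for all 5 nearest genes, which were picked for their likeness to the mean profile.

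Relatives and other targets of the same response were taken as 4 lists of 66 genes, of which 62 were tested. These lists, and the upstream and heat shock lists below, were chosen with earlier results of these data known. Their shares beside all tested genes are therefore a description and no support for a difference. Of these, 18 were called, 6 as higher and 12 as lower, beside 9.20% of all tested genes, and 21 had groups that did not overlap, beside 26.8% of all. The split rests on scaling, since 11 were called as higher and 6 as lower with library totals, 9 and 11 with upper-quartile factors, and 22 and 4 with scaling to 10 epithelial markers. Over all tested genes the called genes were 60.2% higher with TMM, 86.0% with library totals, 70.5% with upper-quartile factors and 98.2% with epithelial scaling, where the median log2 fold change of all genes was 0.49. Those 10 markers summed to between 2603 and 3277 CPM in Thy-Tet1+/+ and to between 1972 and 2081 CPM in the second group, without overlap. Without Thy-Tet1+/+ replicate 2, 13 of the related genes were called, 6 as higher and 7 as lower. Of the 62, 19 were highest in that library, and 4 were more than 1.5 times the next.

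The AP-1 and ATF relatives had 1 called gene of 12 tested, beside 9.20% of all tested genes, and the median log2 fold change was -0.11. Fosl2, the FRA-2 subunit of AP-1, stood at 135, 174 and 133 CPM in Thy-Tet1+/+ and at 66.1, 67.1 and 66.9 CPM in the libraries labelled Thy-Tet1-/-. It was lower in each of them than in any control, with a log2 fold change of -1.15 (standard error 0.13, edgeR adjusted p = 0.0535). Without Thy-Tet1+/+ replicate 1, and also without replicate 3, 2 of the list were called. The EGR and NR4A relatives had 1 called gene of 6, beside the same 9.20% of all tested genes. It was Nr4a3, a nuclear receptor like Nr4a1, at 8.30, 15.6 and 11.0 CPM against 6.21, 4.03 and 4.62 CPM. Its log2 fold change was -1.23 (standard error 0.31, edgeR adjusted p = 0.118).

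Of the 20 feedback regulators, 5 were called, 3 as higher and 2 as lower, beside 5.54% and 3.66% of all tested genes, with a median log2 fold change of 0.23. Zfp36l2, a relative of Zfp36 that also binds AU-rich messages, stood at 41.1, 51.6 and 39.3 CPM in Thy-Tet1+/+ and at 99.5, 68.6 and 87.5 CPM in the libraries labelled Thy-Tet1-/- (log2 fold change 0.95, standard error 0.18, edgeR adjusted p = 0.0908). Dusp16, a phosphatase for JNK and p38, ran the other way, at 112, 157 and 84.3 CPM against 61.0, 59.2 and 69.2 CPM, with a log2 fold change of -0.90 (standard error 0.23, edgeR adjusted p = 0.120). The other three were Dusp4 (2.15), Dusp8 (-1.34) and Ier3 (0.77), given as log2 fold changes. Dusp4 was high in replicate 1 labelled Thy-Tet1-/- (10.2 CPM, against 2.84 and 2.90 CPM in the others), without which it was 1.24 and not called, and it was also not called without Thy-Tet1+/+ replicate 2 or 3. Dusp8 was high in Thy-Tet1+/+ replicate 2 (30.4 CPM, against 7.0 and 15.5 CPM), without which it was -0.69, and it was called in 2 of the 6 fits with a library left out, those without Thy-Tet1+/+ replicate 1 or replicate 2 labelled Thy-Tet1-/-. Ier3 was called in 3 of those 6, not without Thy-Tet1+/+ replicate 1 or without replicate 1 or 3 labelled Thy-Tet1-/-. The count was 3 without Thy-Tet1+/+ replicate 2 or without its replicate 3, and 2 without replicate 1 labelled Thy-Tet1-/-.

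Of 24 other targets tested, 11 were called, 3 as higher and 8 as lower, beside 5.54% and 3.66% of all tested genes, and their median log2 fold change was -0.29. Per1, a component of the circadian clock that stimuli also induce, had the only adjusted p under 0.05 among the related genes. It stood at 104, 110 and 119 CPM in Thy-Tet1+/+ and at 50.5, 50.8 and 39.8 CPM in the libraries labelled Thy-Tet1-/-, with a log2 fold change of -1.24 (standard error 0.13, edgeR adjusted p = 0.0466). Its adjusted p ran from 7.36e-12 to 0.310 over the alternatives, always below 0 in log2 fold change. The time of day of collection was not used here.

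Trib1, a pseudokinase scaffold, stood at 106, 138 and 107 CPM against 56.4, 61.2 and 47.0 CPM (log2 fold change -1.09, edgeR adjusted p = 0.0730). Cebpd, a factor of the acute response, stood at 14.7, 36.4 and 21.6 CPM against 8.23, 9.78 and 6.71 CPM (log2 fold change -1.56, edgeR adjusted p = 0.104). Both were lower in every library labelled Thy-Tet1-/- than in any control. Klf2 and Klf6, zinc finger factors, had log2 fold changes of -0.76 and -0.73 (edgeR adjusted p = 0.102 and 0.137), and Plk2, a polo-like kinase, one of 0.76 (edgeR adjusted p = 0.130). Without Thy-Tet1+/+ replicate 2, Klf6 stood at -0.51 and Plk2 at 0.55, both short of the limit. The other 5 called were Klf4, Gadd45g and Rhob as lower, and Tnfaip3 and Nfkbiz, feedback regulators of NF-kappaB, as higher, with log2 fold changes of 1.03 and 0.78. Of the 6 fits with a library left out, Tnfaip3 was called in 6, Klf4 in 5 (not without Thy-Tet1+/+ replicate 2), Rhob in 3 (not without Thy-Tet1+/+ replicate 2 or 3 or replicate 3 labelled Thy-Tet1-/-), Nfkbiz in 2 (only without replicate 2 of either group) and Gadd45g in 1 (only without Thy-Tet1+/+ replicate 1). Sgk1, a kinase that glucocorticoids induce, had a log2 fold change of -0.45 (edgeR adjusted p = 0.538), which was -0.76 and past the limits without Thy-Tet1+/+ replicate 1.

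**Figure D4:**
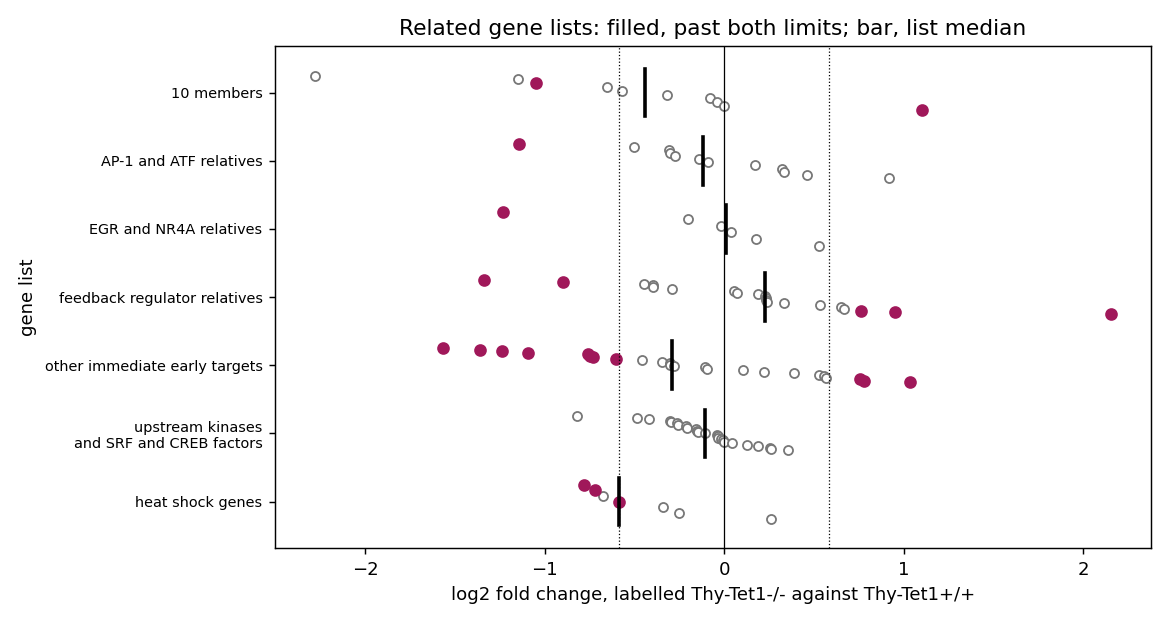
Log2 fold change of every tested gene in the 10-gene list and in 6 related lists, the libraries labelled Thy-Tet1-/- over Thy-Tet1+/+, with filled points for genes past both limits and a bar at each list's median. Called genes lie on both sides of 0 among the feedback regulators (3 higher, 2 lower) and the other targets (3 higher, 8 lower), and the 25 upstream genes have no filled point. Among all tested genes 9.20% were called.

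Upstream of the response lay 25 genes for MAP kinases, SRF, CREB and their cofactors. Of these, 19 had a lower and 6 a higher point estimate. Groups did not overlap for 6, beside 26.8% of all tested genes. By edgeR 0 of the 25 were called, beside 9.20% of all tested genes, and 1 had an unadjusted p under 0.05. DESeq2 and limma-voom also called 0. Leaving out Thy-Tet1+/+ replicate 2 gave 1 and leaving out replicate 3 gave 2. Srf, which encodes serum response factor, stood at 51.4, 38.8 and 34.6 CPM in Thy-Tet1+/+ and at 32.4, 37.0 and 31.9 CPM in the second group. The groups overlapped, with a log2 fold change of -0.30 (edgeR adjusted p = 0.391).

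Heat shock genes, which respond to protein damage and to tissue handling, did not share the high level of Thy-Tet1+/+ replicate 2, since 0 of 7 were highest there. Hspa1a, Hspa1b, Dnajb1, Hsph1 and Hsp90aa1 were highest in Thy-Tet1+/+ replicate 1, the library with the fewest counts (8867683). Hspa8 was highest in Thy-Tet1+/+ replicate 3 and Hspb1 in replicate 2 labelled Thy-Tet1-/-. The part of handling was not tested. Of the 7, 3 were called, all as lower, beside 3.66% of all tested genes, with a median log2 fold change of -0.59. Hsp90aa1, an inducible HSP90, stood at 522, 328 and 478 CPM in Thy-Tet1+/+ and at 267, 257 and 283 CPM in the libraries labelled Thy-Tet1-/- (log2 fold change -0.72, edgeR adjusted p = 0.130). Hspa1a stood at 35, 29.7 and 26.7 CPM against 16.9, 21.6 and 22.4 CPM (log2 fold change -0.59, edgeR adjusted p = 0.146), which lay at the limit and was past it under 7 of 16 alternatives. Its count is uncertain because Hspa1b is a near-identical copy. Hspa1b had a log2 fold change of -0.67 (edgeR adjusted p = 0.359), which was -1.0 and past the limits without replicate 2 labelled Thy-Tet1-/-, and Dnajb1, an HSP40 co-chaperone, one of -0.25 (edgeR adjusted p = 0.464). The third called gene, Hsph1, an HSP110 chaperone, had a log2 fold change of -0.78, which was -0.40 without Thy-Tet1+/+ replicate 1, and it was called in 1 of the 6 fits with a library left out, that without Thy-Tet1+/+ replicate 2. The count of 3 was 0 without Thy-Tet1+/+ replicate 1, 1 without replicate 1 labelled Thy-Tet1-/-, and 0 with library totals.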

How the data were processed

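RNA was measured in 6 thyroid libraries, grouped by the genotypes in their labels. The deposited table holds the raw count of each of 21878 genes as the authors made it, not normalized, and 4100 of these genes had no count. Per the labels the genome build was mm10. The aligner, the counting program and the strand setting are not given in the sources used here, and the deposited protocol text speaks of retinas. Total counts per library and the CPM of 3 counts stand in the results, and such limits and Poisson intervals cover counting error only. The table had 0 other value columns, and 27 symbols turned into dates were restored from gene identifiers.

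Group comparisons used edgeR 4.0.16 under R 4.3.3 (filterByExpr, TMM, glmQLFit and glmQLFTest, Benjamini-Hochberg adjustment over 14143 genes, prior count of 2 for log2 CPM). The biological coefficient of variation was 0.327. Single values were compared by two-sided exact permutation tests, whose smallest p is 0.10. The code was tested on simulated data. Libraries were checked for duplicates, and none were found.

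The 10 genes, the related lists and the marker lists were chosen with earlier results of these data known. Genes named in the related lists were those called, or the 12 with the smallest p, together with Hspa1a, Hspa1b, Dnajb1, Srf, Per1 and Sgk1, and others named were chosen after their values were seen. The profile distance used the 5 nearest genes. Of 191 genes in all lists, 191 were matched, 4 by an older symbol. Alternatives were RLE size factors, library totals, upper-quartile factors, scaling to epithelial markers, no filter, at least 10 counts in every library, DESeq2 1.42.0, limma-voom (limma 3.58.1), a robust fit, a replicate block and each library left out.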

Additional observations from a re-analysis of the deposited data

How the results depend on the processing

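Junb was called under every one of the 16 alternatives, and the count of called genes among the 10 was 2. It was 1 with epithelial scaling and ranged from 1 to 4 with 1 library left out. Genes of the 10 with an adjusted p under 0.05 were 1 with epithelial scaling and 2 with DESeq2, where the main test had 0, and the cause was not tested. The AP-1 and ATF relatives had 2 calls with library totals, 3 with epithelial scaling and 2 with no filter, and 1 to 2 with a library left out. The EGR and NR4A relatives had 2 with library totals and 3 with epithelial scaling. The feedback regulators had 11 with epithelial scaling and 2 to 6 with a library left out. The upstream genes had 5 with epithelial scaling and 0 to 2 with a library left out. The heat shock genes had 0 with library totals, 1 with each of upper-quartile factors, epithelial scaling and limma-voom, and 0 to 3 with a library left out. Over all tested genes 1301 were called, and 4204 with epithelial scaling, which shifts the median log2 fold change to 0.49. Library totals shift it to 0.19. Genes with an adjusted p under 0.05 numbered 1192 in DESeq2 and 16 in edgeR. The median SD of the 10 genes within the libraries labelled Thy-Tet1-/- ranged from 0.15 to 0.32 with a library left out.

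Log2 fold changes that reversed were, with library totals, Egr1 at 0.12, Ier2 at 0.15 and Prdx2 at 0.020, and with upper-quartile factors Ier2 at 0.018. With epithelial scaling they were Egr1 at 0.46, Ier2 at 0.46, Zfp36 at 0.22, Dnajb1 at 0.22, Srf at 0.18, Sgk1 at 0.043, Pitpnm3 at 0.30, Diaph3 at 0.061, Csf1r at 0.14, Serpinb9 at 0.28, Lyn at 0.10 and Prdx2 at 0.35. Nr4a1 stood at -0.00081 with no filter, at -0.046 with limma-voom and at -0.018 with the replicate block. With 1 library left out, signs also turned within the ranges -1.01 to 0.33 for Fos, -0.34 to 0.33 for Egr1, -1.64 to 0.44 for Atf3, -0.14 to 0.18 for Nr4a1, -0.76 to 0.023 for Sgk1, -0.45 to 0.19 for Pitpnm3, -0.75 to 0.12 for Diaph3, -0.62 to 0.094 for Csf1r and -0.49 to 0.25 for Serpinb9.

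The libraries are numbered 1 to 3 in each group, but same-numbered libraries did not deviate together (r = -0.17, -0.37 and -0.19 across genes), and no library correlated best with its own number. In the fit with a replicate block, 1145 genes were called, 0 with an adjusted p under 0.05 by edgeR although 1900 had an unadjusted p under 0.05. In that fit 3 of the 10 genes were called, Junb (1.08), Dusp1 (-0.94) and Jun (-0.59), and 15 of the related genes. Fosb had 6 to 118 counts in a library, and at the low end counting error limits its values.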
